A study of Mus musculus with 6 samples.

Results

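The S100 proteins are a vertebrate family of small calcium sensors, and the genes described here are the 10 family members S100b, S100a1, S100a4, S100a6, S100a8, S100a9, S100a10, S100a11, S100a13 and S100a16. They were taken by gene name from the array's own annotation, which gave 13 probes (2 each for S100a1, S100a4 and S100a16, and 1 for each of the others) out of 55681 probes for 34836 gene names. The RNA came from magnetically sorted astroglial cells of the neonatal mouse cerebellum, hybridized to one-color oligonucleotide arrays, and the comparison asks which genes distinguish astroglial cells that carry the ACSA-2 epitope, a form of the sodium pump subunit Atp1b2, from those that lack it. There were 3 biological replicates of ACSA-2 positive/GLAST positive cells (A+/G+) and 3 of ACSA-2 negative/GLAST positive cells (A-/G+), with 50000 cells per sample; GLAST is the glutamate transporter Slc1a3.

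Both fractions came from wild-type mice, labelled as strain CD1 and as postnatal day 1 to 3, with no transgene and no treatment. The study's methods describe a C57BL/6 background and a slightly earlier age, so strain and age are given here as labelled only. Cerebella of either sex were pooled before sorting. The A+/G+ cells were taken with ACSA-2 beads in a single step, so that rare ACSA-2 positive cells without GLAST were counted with them, whereas the A-/G+ cells were first depleted with beads against L1CAM, ACSA-2, CD45, PSA-NCAM and Ter119 and then selected for GLAST. Blood and immune cells and neuronal cells were therefore depleted from A-/G+ only. Each fraction was hybridized on a slide of its own, and an effect of the slide and of the fraction cannot be told apart.

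S100 proteins pair up into dimers, and each subunit holds a pair of EF-hands, helix-loop-helix folds whose loop binds calcium. Binding opens a surface that takes up target proteins, among them annexins, myosin and ryanodine receptors, and some members are also released from cells and act on the receptor RAGE. S100b is the family's classic astrocyte marker, and S100a8 and S100a9, which together form calprotectin, are best known from neutrophils. Most of the genes lie side by side in 1 cluster, and in the array annotation (mm9) 9 of the 10 members mapped to chromosome 3 and S100b to chromosome 10.

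A calcium loop can be read in some of the probes themselves. The bases of 3 of the 13 probes matched an EF-hand loop pattern of 12 codons, the only loop form searched for. These are shown because they tie the measured signal to a part of the message that encodes such a loop. Capitals mark the codons of the loop, 12 in the S100a1 and S100a8 probes and 10 of the 12 in the S100a6 probe, which starts inside the loop. All are exonic coding sequence, written 5′ to 3′ along the transcript. The S100a1 probe lies at chr3:90315191-90315250 on the minus strand, the S100a6 probe at chr3:90418160-90418219 on the plus strand and the S100a8 probe at chr3:90473778-90473837 on the plus strand (mm9).
S100a1: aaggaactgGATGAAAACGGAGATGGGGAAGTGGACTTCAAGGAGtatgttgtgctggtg
S100a6: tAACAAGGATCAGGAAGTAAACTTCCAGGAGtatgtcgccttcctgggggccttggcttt
S100a8: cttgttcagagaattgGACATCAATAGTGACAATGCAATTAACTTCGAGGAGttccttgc
Although the loops are alike in the proteins, the probes were not alike as DNA. The longest run of bases shared by probes of different members was 11, and no probe of any other gene on the array shared a run of 25 bases with a member's probe.

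All 10 members had a higher mean signal in A+/G+ than in A-/G+. The difference passed an adjusted p of 0.05 (limma over all 55681 probes, Benjamini-Hochberg adjustment) for 7 of the 10, taking for each gene its brightest probe, the one with the highest mean signal, and none was higher in A-/G+. The 7 were S100b, S100a1, S100a6, S100a10, S100a11, S100a13 and S100a16, with differences of 0.99 to 1.82 on the log2 scale (1.98- to 3.54-fold), and they were also the 7 whose signal was well above background on all 6 arrays. The other 3, S100a4, S100a8 and S100a9, were dim in A-/G+. Over all probes, 4.65% were called toward A+/G+ and 4.64% toward A-/G+, and among the probes well above background on all arrays of at least 1 fraction the shares were 8.71% and 9.21%. The median difference was 1.57 over the 10 members and -0.04 over all probes. These calls rested on every A+/G+ array: without A+/G+ replicate 1 none of the 7 passed (S100a9 did, against A-/G+ values that are all background), and without replicate 2 or without replicate 3 none of the 10 did, while all 10 differences stayed above 0.

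Every A+/G+ array stood above every A-/G+ array for 9 of the 10 members, the exception being S100a8, and for 12 of the 13 probes. Over all probes this held for 12.7%. With the further requirement of a 4-fold difference of medians, no member passed on its brightest probe and 2 of the 13 probes did, the dimmer probes of S100a1 and S100a4; 1.53% of all probes passed both limits toward A+/G+ and 0.399% toward A-/G+. The signals are of bulk RNA, so fewer cells of a type and less RNA per cell cannot be told apart.

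**Figure D1:**
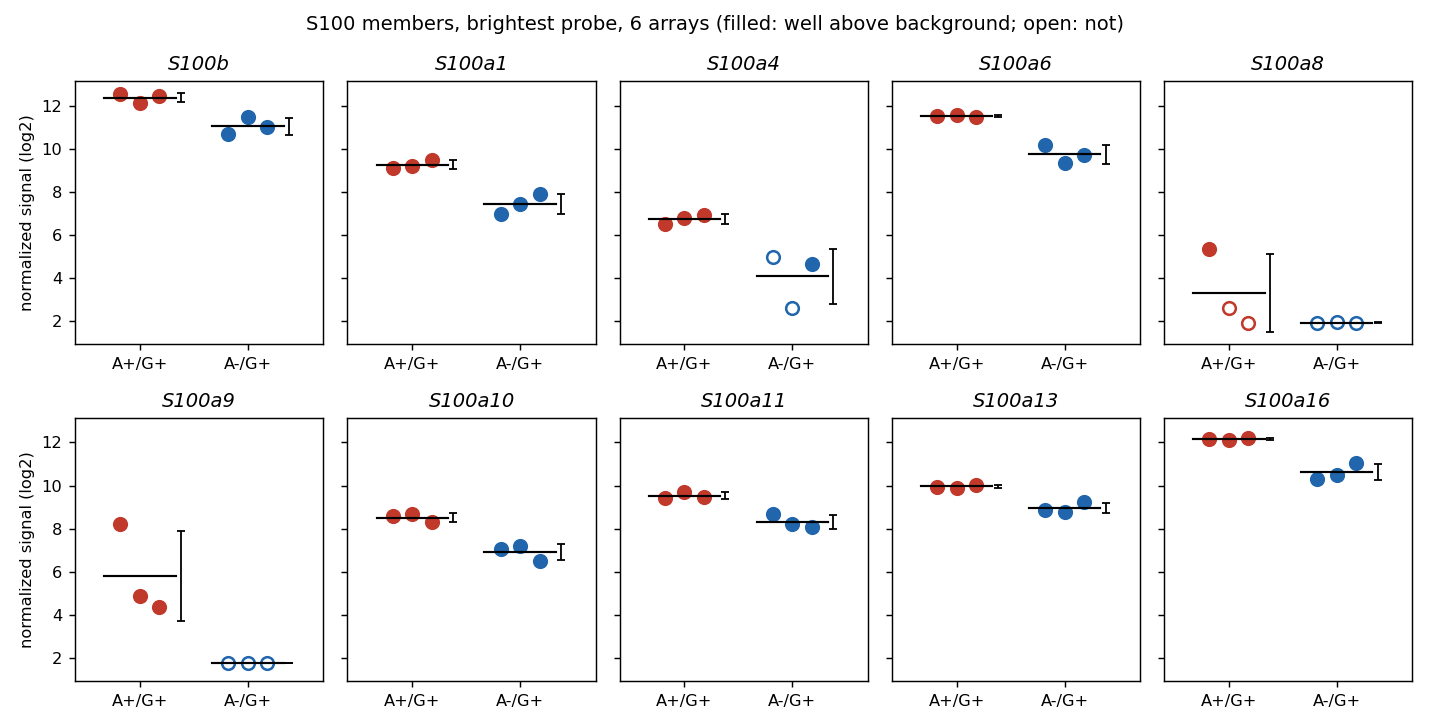
Normalized signal (log2) of the brightest probe of each S100 member on the 3 A+/G+ arrays (red) and the 3 A-/G+ arrays (blue); lines are means, bars the SD, and open circles are spots not well above background. The groups separate for 9 of the 10 members, and S100a8 is well above background on A+/G+ replicate 1 only.

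S100b, the astrocyte marker and a RAGE ligand when released, is measured by 1 probe at chr10:75723783-75723842. Its normalized log2 signal was 12.53, 12.13 and 12.47 on A+/G+ replicates 1, 2 and 3, and 10.69, 11.46 and 10.99 on A-/G+ replicates 1, 2 and 3. The lowest A+/G+ array lay above the highest A-/G+ array, and A-/G+ replicate 2 was nearest to it. The difference of means was 1.33 (SE 0.23, 95% confidence interval 0.73 to 1.93, adjusted p = 0.0352, limma), the largest adjusted p among the 7 members called. It was 1.15 without A-/G+ replicate 1 and 1.30 without A-/G+ replicate 3, with adjusted p of 0.0632 and 0.0625.

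S100a10, also called p11, is the member that does not respond to calcium and forms a complex with annexin A2; its probe lies at chr3:93368437-93368496. Its log2 signal was 8.57, 8.68 and 8.29 in A+/G+ against 7.06, 7.17 and 6.51 in A-/G+. The difference was 1.60 (SE 0.22, adjusted p = 0.0195, limma), and the groups did not overlap. A-/G+ replicate 3 was its lowest array, and the difference from that array alone was 2.01.

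S100a11, calgizzarin, binds annexin A1 and was measured at chr3:93330022-93330081. Its log2 signal was 9.41, 9.71 and 9.48 in A+/G+ and 8.66, 8.19 and 8.08 in A-/G+. The difference was 1.22 (SE 0.19, adjusted p = 0.0251, limma), with no overlap.

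S100a6, calcyclin, binds several annexins and the ubiquitin ligase component Cacybp. Its log2 signal was 11.50, 11.56 and 11.47 in A+/G+ (SD 0.05) and 10.20, 9.33 and 9.73 in A-/G+. The difference was 1.76 (SE 0.23, adjusted p = 0.0182, limma), with no overlap between the groups. It was one of the 3 members, with S100a13 and S100a16, whose brightest probe also passed the methods' t-test after Benjamini-Hochberg adjustment over all probes.

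S100a1, known from muscle as a regulator of ryanodine receptors and of the calcium pump of the sarcoplasmic reticulum, had 2 probes. The brighter one, the coding probe printed above, gave 9.09, 9.21 and 9.50 in A+/G+ and 6.96, 7.45 and 7.91 in A-/G+. The other, at chr3:90314959-90315018, gave 8.88, 8.68 and 8.99 against 6.88, 6.71 and 7.44. Both showed no overlap and nearly the same difference, 1.82 (SE 0.27, adjusted p = 0.0239) and 1.84 (SE 0.22, adjusted p = 0.0146, limma). This was the largest difference among the 7 members called. The medians differed 3.38-fold on the first probe and 4.03-fold on the second, which lay just past the 4-fold limit. By the methods' t-test with Benjamini-Hochberg adjustment, the second probe passed (adjusted p = 0.0433) and the first did not (adjusted p = 0.0602).

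S100a13, which takes part in the release of Fgf1 and interleukin 1 alpha from cells and whose probe lies at chr3:90328442-90328501, showed the smallest difference. Its log2 signal was 9.96, 9.91 and 10.004 in A+/G+ and 8.88, 8.79 and 9.23 in A-/G+. The difference of 0.99 (SE 0.13) passed the test (adjusted p = 0.0184, limma), and the arrays within each fraction were close together.

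S100a16, a widely expressed member, had 2 probes. The brighter one, at chr3:90346875-90346934, gave 12.14, 12.11 and 12.21 in A+/G+ against 10.32, 10.50 and 11.05 in A-/G+, a difference of 1.53 (SE 0.20, adjusted p = 0.0185, limma). The other, at chr3:90346529-90346588, gave 11.02, 11.06 and 11.19 against 9.26, 9.60 and 10.18, a difference of 1.41 (SE 0.25, adjusted p = 0.0359, limma). On both probes, A-/G+ replicate 3 was the highest of the A-/G+ arrays yet below every A+/G+ array. Of the 10 members, 3 had their highest A-/G+ signal on that replicate, namely S100a1, S100a13 and S100a16. S100a4 is not counted because its brighter probe read higher on A-/G+ replicate 1, where it was not well above background.

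S100a4, which binds non-muscle myosin and is used as a marker of fibroblasts, cleared the background on each A+/G+ array but in A-/G+ on replicate 3 only. Its brighter probe, at chr3:90409734-90409793, gave 6.51, 6.79 and 6.95 in A+/G+ and 4.98, 2.61 and 4.66 in A-/G+. The difference was 2.67 (SE 0.68) and did not pass (adjusted p = 0.0835, limma). The other probe, at chr3:90409908-90409967, gave 6.59, 6.74 and 7.02 against 2.69, 3.46 and 4.81, a difference of 3.13 (SE 0.57) that passed (adjusted p = 0.0386). The 2 probes thus fell on opposite sides of the threshold with the groups separate on both. Against A-/G+ replicate 3 alone, the only measured A-/G+ array, the A+/G+ mean was 2.09 and 1.97 higher.

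S100a8 and S100a9, the partners in calprotectin, shared a pattern within A+/G+. The S100a9 probe, at chr3:90496573-90496632 on the minus strand, gave 8.22, 4.88 and 4.35 on A+/G+ replicates 1, 2 and 3, all well above background, and 1.79, 1.77 and 1.77 on the A-/G+ arrays, none of which was well above background. S100a8 gave 5.37, 2.61 and 1.94 in A+/G+ and 1.93, 1.96 and 1.93 in A-/G+, and only A+/G+ replicate 1 was well above background. A+/G+ replicate 1 was thus the highest array for both genes, by 3.34 log2 units over the next A+/G+ array for S100a9, and for S100a8 by at least 1.76, since its other A+/G+ arrays were not well above background.

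For a gene not well above background in one fraction only a bound can be given. For each dim array the dimmest signal that still cleared the background there was used, or the probe's own value where that was higher, and the A+/G+ mean of S100a9 was then at least 1.93-fold higher than the A-/G+ mean. The measured means were 5.82 and 1.78, and the fit's adjusted p was 0.0959 (limma). That bound rested on A+/G+ replicate 1: without it the A+/G+ mean was 4.61, under the 4.87 of the A-/G+ arrays at their bounds, and no fold can be given. The fitted difference without that array, 2.84 (adjusted p = 0.0203), is against background values. S100a8 allowed no bound above 1, and its difference of 1.37 had an SE of 0.95 and an adjusted p of 0.487. Without A+/G+ replicate 1, the S100a8 difference was 0.33.

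**Figure D2:**
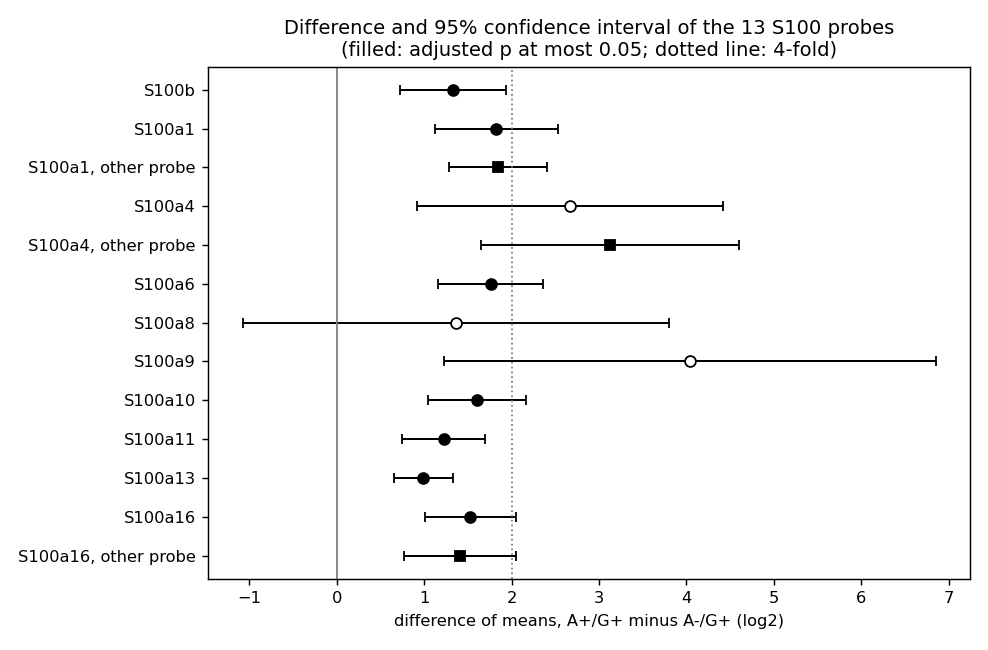
Difference of mean log2 signal (A+/G+ minus A-/G+) with its 95% confidence interval for each of the 13 S100 probes; filled symbols passed an adjusted p of 0.05, squares are the dimmer probe of a gene, and the dotted line marks 4-fold. All 13 differences lie above 0, 10 are filled, and the interval of S100a8 runs from -1.07 to 3.80.

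The promoters of the members differed in their core letters. Windows from 250 bases before to 50 bases after the start (RefSeq, GRCm38.p6) were found for 9 of the 10 members, with 2 windows for S100a16. They were searched on both strands for the TATA box letters TATAAA, the GC box letters GGGCGG, the CCAAT box letters CCAAT and the AP-1 site letters TGAGTCA, none of which is contained in another. TATAAA was found in 3 member windows, those of S100a4, S100a8 and S100a9, which are the 3 members not well above background on every array. It was found in 13.6% of all 32851 windows. In 1.99% it began 40 to 20 bases before the start on the gene's own strand, as in S100a4 (31 bases before) and S100a8 (30 bases before). In S100a9 it began at the annotated start itself. GGGCGG was found for S100a9, S100a11 and S100a16 (35.7% of all windows), CCAAT for S100b and S100a6 (37.4%) and TGAGTCA for S100a11 (5.20%).

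The 100 bases before the start are shown for the pair with TATAAA near the start, for S100a11, which held GGGCGG 3 times, and for S100b as a member with neither; capitals mark TATAAA or GGGCGG. These lie, all on the plus strand of GRCm38.p6, at chr3:90603670-90603769 (S100a4), chr3:90668971-90669070 (S100a8), chr3:93520396-93520495 (S100a11) and chr10:76253736-76253835 (S100b).
S100a4: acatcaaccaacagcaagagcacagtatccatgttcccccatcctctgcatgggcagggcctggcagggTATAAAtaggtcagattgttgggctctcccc
S100a8: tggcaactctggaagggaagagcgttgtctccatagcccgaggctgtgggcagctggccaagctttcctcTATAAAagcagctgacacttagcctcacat
S100a11: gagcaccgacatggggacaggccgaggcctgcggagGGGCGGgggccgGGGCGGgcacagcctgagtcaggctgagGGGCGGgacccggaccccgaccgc
S100b: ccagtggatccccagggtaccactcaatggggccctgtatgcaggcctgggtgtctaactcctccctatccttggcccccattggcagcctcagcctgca
These matches describe letters in a window and were not tested against the signals.

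S100a1 and S100a13 face away from each other, with annotated starts 105 bases apart. The 104 bases between them, chr3:90514331-90514434 on the plus strand of GRCm38.p6, are shown because they precede both genes.
S100a1 and S100a13: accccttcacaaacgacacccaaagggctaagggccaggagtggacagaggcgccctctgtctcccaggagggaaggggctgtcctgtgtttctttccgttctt
The pair's differences were 1.82 and 0.99, the largest and the smallest among the 7 members called, and in both genes A-/G+ replicate 3 was the highest of the A-/G+ arrays.

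By probe position (mm9) the array covered 12 S100 genes within 181 kb of chromosome 3, and S100a11 and S100a10 38.4 kb apart farther along. The nearest measured genes outside the family were picked by position after the members' values were known. Before the first group lay Ilf2, Snapin and Chtop, with differences of -0.75, 0.08 and -0.09 and adjusted p of 0.0515, 0.720 and 0.558 (limma). After it lay Lor (1.79, adjusted p = 0.0785), Sprr2a2 (-0.23, adjusted p = 0.159) and Lce1a2 (-0.67, adjusted p = 0.103). None of these 6 passed, and 4 of the 7 members in that group did. Around S100a11 and S100a10, both of which passed, the nearest were again Lce1a2, then Lce1j (-0.28, adjusted p = 0.705) and Tchh (1.54, adjusted p = 0.0197, well above background on no A-/G+ array) on one side. The other side included Them4 (0.98, adjusted p = 0.284) and Lingo4 (-2.07, adjusted p = 0.0158, limma). Of the 11 neighbors, 2 thus passed, in opposite directions. The difference between these counts and those of the members was not tested.

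The other S100 genes on the array were at or near background. Of the 6 listed (S100a3, S100a5, S100a7a, S100a14, S100g and S100z), 3 had a higher mean in A+/G+ and 2 passed, S100a3 (difference 1.86, adjusted p = 0.00747) and S100a14 (difference 1.03, adjusted p = 0.0363, limma). S100a3 cleared the background on 1 A+/G+ array and S100a14 on no array, so neither gives a measured level in A-/G+. S100g was well above background on A-/G+ replicate 2 only. S100a2, named after its values were seen, was well above background on no array.

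Genes for the receptors and binding partners of S100 proteins were taken from a list of 34. The test was passed by 6, all higher in A+/G+, and the median difference was 0.40 against -0.04 over all probes. Toward A+/G+, 4.65% of all probes were called, and 8.71% of those well above background on all arrays of at least 1 fraction. Anxa2, the membrane-binding partner of S100a10, gave 13.40, 13.45 and 13.40 in A+/G+ and 11.68, 11.52 and 11.42 in A-/G+, a difference of 1.87 (adjusted p = 0.00308, limma). Ahnak, a giant scaffold protein bound by that complex, differed by 1.94 (adjusted p = 0.00751). Plat, the plasminogen activator that binds S100a10, differed by 1.31 (adjusted p = 0.0438). Anxa2, Ahnak and Plat were named because they passed, so their being called together with S100a10 follows from that choice. The 28 genes of the list that did not pass included Plg, Htr1b and Scn10a, all at or near background. Their differences were 0.16, 0.78 and -0.32, with adjusted p of 0.817, 0.636 and 0.259 (limma).

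Among the other partners that passed, Mapt, the microtubule protein tau, differed by 2.02 (adjusted p = 0.0180), and Ryr1, the skeletal muscle ryanodine receptor, by 1.13 (adjusted p = 0.0424). Kcnk3, a potassium channel that S100a10 helps to the surface, differed by 2.45 (adjusted p = 0.0249, limma) but was well above background on no A-/G+ array. Anxa1, the partner of S100a11, gave 9.19, 9.14 and 9.29 against 8.07, 7.73 and 6.59 and did not pass (difference 1.74, adjusted p = 0.0680). Ager, which encodes RAGE, gave 4.47, 4.95 and 4.91 against 4.84, 5.96 and 5.64, with overlapping groups (difference -0.70, adjusted p = 0.303). Cacybp did not pass either (difference -0.20, adjusted p = 0.437).

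Of 17 genes for EF-hand proteins outside the family, 4 passed toward A+/G+ and 2 toward A-/G+, and the median difference was 0.30. Over all probes the shares called were 4.65% and 4.64%. Among probes well above background on all arrays of at least 1 fraction they were 8.71% and 9.21%. The EF-hand genes called toward A+/G+ included Calb1 (calbindin, a Purkinje cell protein), Vsnl1 and Necab1. Calb1 differed by 4.98 (adjusted p = 0.0105, limma), but since no A-/G+ array was well above background the A+/G+ mean was at least 23.9-fold higher. Vsnl1 was at least 1.23-fold higher by the same bound (adjusted p = 0.0478), and Necab1 was well above background on no array. Pvalb, parvalbumin, was lower in A+/G+ (difference -1.81, adjusted p = 0.00707), as was the mitochondrial Efhd1 (difference -1.29, adjusted p = 0.0498).

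The genes whose pattern over the 6 arrays was nearest to that of S100b were Snph, Tmem74b, Pcnxl4, Ntrk3 and Manba. The measure was the root mean square distance of log2 signals after each probe's own mean was taken off, and it was 0.09 to 0.12 for these 5. It was searched over the 13452 probes with a standard gene symbol among the 17957 well above background on all 6 arrays. For S100a9 the nearest included Pcp4, Vstm2l, Slc6a11 and Trim9, at a distance of 0.95 to 1.14. This distance grows with the spread of a gene's signals, and genes at background in A-/G+ like S100a9 were outside the search, so the distances of S100a9 and S100b cannot be set against each other. Pcp4 gave 12.65, 11.05 and 11.58 in A+/G+, again highest on replicate 1.

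Sort targets and cell type markers were read from the same arrays. Over all probes, 4.65% were called toward A+/G+ and 4.64% toward A-/G+. Among those well above background on all arrays of at least 1 fraction, the shares were 8.71% and 9.21%. The sort's target Atp1b2 rose by 2.16 from A-/G+ to A+/G+ (adjusted p = 0.00725, limma), whereas Slc1a3 had a difference of -1.19 that did not pass (adjusted p = 0.0733). Each of the 14 general astrocyte markers cleared the background on all 6 arrays; 6 were called toward A+/G+, including Apoe and Aldoc, and Aldh1l1 alone toward A-/G+, with a summed log2 signal of 18.40 to 18.46 against 17.44 to 18.06. All 7 Bergmann glia markers, among them Gdf10 and Gria4, were called higher in A-/G+, opposite to the S100 members (12.06 to 12.34 against 14.13 to 14.72). The study had already reported Npy, Gria1, Mybpc1, Gdf10 and Wif1 as higher in A-/G+ from these same arrays. Much of this count was therefore fixed in advance.

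Markers of several other cell types moved with the S100 members. For meningeal fibroblasts, which can express S100a4, S100a6, S100a10 and S100a11, 9 of 9 markers had the higher mean and 3 passed (Foxc1, Slc6a13 and Lum), each cleared the background on all 6 arrays, and the log2 summed signal was 16.44 to 16.72 in A+/G+ and 13.81 to 15.41 in A-/G+. For ependymal cells 12 of 12 were higher and 8 passed (12.63 to 13.33 against 9.82 to 10.85). For pericytes and smooth muscle 8 of 8 were higher and 3 passed, Pdgfrb, Rgs5 and Myh11, the last well above background on no array (11.77 to 12.03 against 9.90 to 10.64), and for endothelial cells 10 of 10 were higher and 1, Cdh5, passed (13.07 to 13.67 against 10.87 to 13.12). For oligodendrocyte precursors 5 of 7 were higher and 3 passed, Olig1, Olig2 and Pdgfra (13.71 to 14.01 against 10.6995 to 11.999). Toward A+/G+, 4.65% of all probes were called, and 8.71% of those well above background on all arrays of at least 1 fraction. The endothelial count of 1 of 10 lies near these shares. The part of these cells in the S100 differences was not tested.

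Within A-/G+, where S100a1, S100a13 and S100a16 were highest on replicate 3, the same held for the endothelial, ependymal, pericyte, oligodendrocyte precursor, erythroid, granule neuron and pan-neuronal sums and for the brightness of the arrays before normalization, so the order singles out no list. The meningeal sum was 15.41, 14.86 and 13.81 on replicates 1, 2 and 3, and S100a10 and S100a11 were also lowest on replicate 3. The general astrocyte, Bergmann glia, and microglia and macrophage sums were lowest on replicate 3 too, so this order singles out no list either. S100a6 was lowest on replicate 2.

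For neutrophils, the cells best known for S100a8 and S100a9, 7 of 13 markers had the higher mean in A+/G+ and 1, Mmp9, passed (adjusted p = 0.0454, limma). That 1 of 13 lies near the share of all probes called toward A+/G+, 4.65%, or 8.71% of those well above background on all arrays of at least 1 fraction. Mmp9 gave 7.77, 7.75 and 7.88 in A+/G+ and was well above background in A-/G+ on replicate 3 only, at 5.31. No array was well above background for 7 of the 13, among them Mpo and Ngp. The summed log2 signal was 12.89 to 13.83 against 13.68 to 14.01, and it followed Csf3r, which cleared the background on every array. Ltf gave 4.29, 1.95 and 1.92 in A+/G+, well above background on replicate 1 only, as S100a8 was. Lcn2 gave 4.25, 3.49 and 3.57 in A+/G+, also well above background there on replicate 1 only. Its highest signal was 5.11 on A-/G+ replicate 2, where it was not well above background. Camp gave 5.91, 4.14 and 3.86 in A+/G+, highest on replicate 1, but 5.54 on A-/G+ replicate 1, which was not well above background. Elane, well above background on every A+/G+ array, was lowest on replicate 1 there (4.18, 4.78 and 4.33). The neutrophil, microglia and macrophage, erythroid, Purkinje cell, pan-neuronal and choroid plexus sums were all highest on A+/G+ replicate 1. The other cell type sums were not. The part of neutrophils in the signal of S100a8 and S100a9 was not tested.

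Of 14 microglia and macrophage markers 6 had the higher mean in A+/G+ and 1, Tmem119, passed (10.76 to 11.44 against 11.11 to 12.20). That count, too, lies near the 4.65% of all probes called toward A+/G+. Of 7 erythroid markers 4 were higher and none passed (13.11 to 13.98 against 11.33 to 12.94). Of 6 Purkinje cell markers 5 were higher and 4 passed, Pcp2, Calb1, Car8 and Pcp4 (12.27 to 13.73 against 10.63 to 10.97). None passed among 9 pan-neuronal (6 higher), 5 granule neuron lineage (5 higher) and 9 choroid plexus markers (2 higher), whose sums were 13.34 to 14.07 against 12.32 to 13.41, 10.88 to 11.46 against 9.55 to 11.66, and 14.61 to 15.27 against 14.53 to 15.81.

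**Figure D3:**
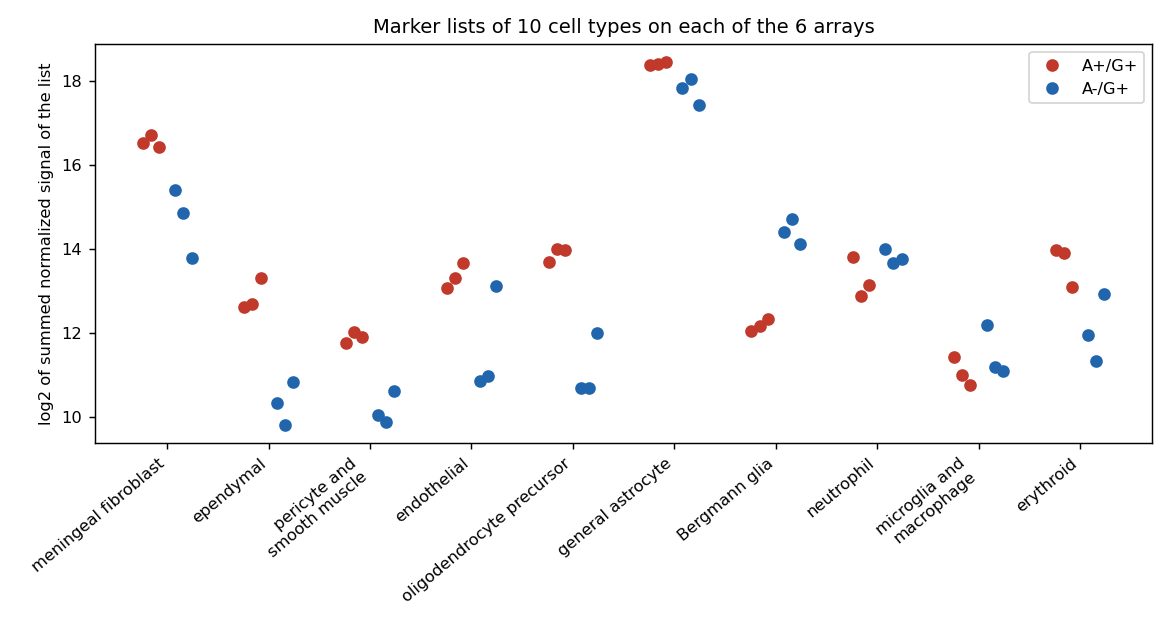
Log2 of the summed normalized signal of 10 marker lists on each of the 3 A+/G+ arrays (red) and 3 A-/G+ arrays (blue), from replicate 1 on the left to replicate 3 on the right in each set. The meningeal, ependymal, pericyte, oligodendrocyte precursor, general astrocyte and erythroid lists are higher in A+/G+ with no overlap. The Bergmann glia list is lower, and the endothelial, neutrophil and microglia lists overlap.

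The arrays themselves differed before normalization. The 75th percentile of the signal was 332 to 334 on the A+/G+ arrays and 56.6, 113 and 251 on A-/G+ replicates 1, 2 and 3, and 26476 to 26655 probes cleared the background in A+/G+ against 18340 to 24730 in A-/G+. Log2 signals of replicates correlated at 0.993 to 0.996 within A+/G+ and at 0.960 to 0.982 within A-/G+. The part of this in the S100 differences was not tested. When A-/G+ replicate 3, the array closest in brightness, was set alone against A+/G+, all 10 members had the higher mean in A+/G+ and 6 passed, but the spread in that fit came from the A+/G+ arrays alone, which were the more alike, so this count says little about the A-/G+ fraction. When each array was only shifted by its 75th percentile, which moved the median difference of all probes to -1.02 from -0.04 and the calls to 4.25% toward A+/G+ and 30.9% toward A-/G+, the 10 members still had the higher mean in A+/G+, their median difference was 1.54, and 8 passed.

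**Figure D4:**
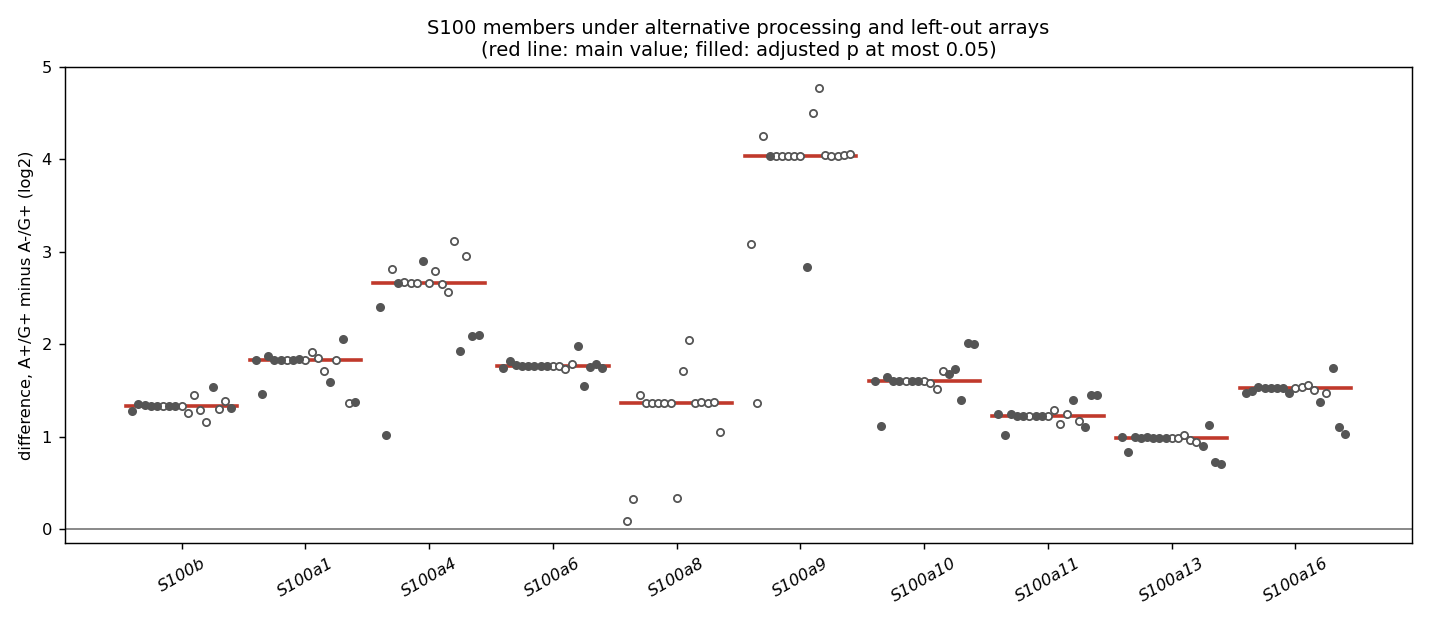
Difference of log2 signal (A+/G+ minus A-/G+) of each S100 member in the main analysis (red line) and under each alternative or with an array left out (circles, filled where the adjusted p was at most 0.05). No difference falls below 0; S100a8 spreads from 0.08 to 2.05 and is never filled, and S100a13 spreads from 0.71 to 1.12.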

How the data were processed

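Each of the 6 samples was read from its own one-color Agilent Feature Extraction 10.7.3.1 file (mouse whole-genome array, probe coordinates in mm9). The intensity deposited per spot was the authors' background-subtracted processed signal; control spots and the 118 to 250 outlier spots per array were left out. The study's methods describe quantile normalization, and the same was done here: log2 of the intensity, quantile normalization over 59305 spots, then the mean of the spots of a probe. The authors also deposited a log2 table of normalized values, which followed these values closely (correlation of 0.99987 or more on every array), is centered on a median of 3.58 and was used as an alternative. Fractions were compared with limma 3.58.1 (R 4.3.3) over 55681 probes with Benjamini-Hochberg adjustment at 0.05, with medians at least 4-fold apart as a second limit; a gene's value was its probe with the highest mean signal, and confidence intervals are at 95%. The script was tested on simulated data. It called 31% of 100 probes changed by 1.5 log2 units and 60% of 100 changed by 3, with 10 false calls. A gene that did not pass may therefore still differ. An exact permutation test of 3 against 3 arrays cannot give a p below 0.1, and 12 of 13 probes reached that value. The number of arrays limits the precision. The labels call the replicates biological.

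The members and the gene and marker lists were chosen with earlier results of these data known. Named were all members with every probe, the other S100 genes, the genes of the partner and EF-hand lists that passed (at most 10 each), the sort targets, marker genes needed to describe a count, and the nearest genes by pattern for S100b and for the member with the largest difference; some genes that this rule or a gene's position picks are not reported here. Alternatives were leaving out each array in turn, a block for the replicate number, scaling by the 75th percentile, normexp (offset 50), the table from the authors, testing bright probes only, keeping outlier spots, averaging a gene's probes, the methods' t-test, and a robust limma fit with a variance trend. Promoter sequences are from RefSeq.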

Additional observations from a re-analysis of the deposited data

How the results depend on the processing

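All 10 members kept a higher mean in A+/G+ under every alternative (9 of 9 where a filter on dim probes dropped S100a8), and none was called higher in A-/G+. The main count of 7 members past the adjusted p was 7 to 9 under the 75th percentile shift, normexp background correction, the authors' table, the filter on dim probes, outlier spots kept, trend and robust variance, and the mean of all probes. By the methods' t-test it was 3 (S100a6, S100a13 and S100a16, on their brightest probes), with 2.43% of all probes called higher in A+/G+. The dimmer S100a1 probe passed that t-test too (adjusted p = 0.0433), and the dimmer probes of S100a4 and S100a16 did not. Leaving out 1 array gave 0 to 6 members: 1 (S100a9, against background values), 0 and 0 without A+/G+ replicates 1, 2 and 3, and 5, 5 and 6 without A-/G+ replicates 1, 2 and 3. The share called higher in A+/G+ was 4.65% of all probes in the main analysis and 12.9% of the probes kept by the filter on dim probes. Under the other alternatives that gave 7 to 9 members it was 4.25% to 6.31%. It fell to 1.47% to 1.83% without an A+/G+ array, and was 3.62%, 3.18% and 7.97% without A-/G+ replicates 1, 2 and 3. The count past both limits was 0 in the main analysis, 1 under the 75th percentile shift, normexp and the mean of all probes, 2 under the filter on dim probes, and 0 to 1 with an array left out. Those 2 under the filter were S100a4 and S100a9, which the filter kept only through their A+/G+ arrays. They were also among its 9 members past the adjusted p, so the filter's counts are no independent support. In 2 alternatives chosen after seeing the data, A-/G+ replicate 3 alone against A+/G+ gave 6 members past the adjusted p (8 if arrays were scaled by the 75th percentile) and 2 past both limits either way; that lone array was assumed to vary like the A+/G+ arrays, which were the more alike.

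The same replicate numbers occur in both fractions, but arrays of the same number correlated at 0.20, 0.11 and -0.11 in their deviations from the group means, so the numbers were not taken as pairs. With the replicate number as a block, 0 members passed, as did 0 of all 55681 probes, with adjusted p of 0.0643 to 0.159 for the 7.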
